A study of Mus musculus with 2 samples.

Results

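The genes described here are 10 genes of antigen presentation by major histocompatibility complex (MHC) class II and of dendritic cells, out of 38279 genes with a value in the files. They were chosen by name, not by their values: H2-Aa, H2-Ab1, H2-Eb1, H2-DMa, H2-DMb1, Cd74 and Ciita of the class II pathway, and Flt3, Clec9a and Siglech of dendritic cells. All 10 were found in both libraries and passed a mean of at least 1 FPKM (fragments per kilobase of transcript, scaled to library depth), as did 12861 genes in all. RNA-seq compared liver cells of adult male C57/Bl6 mice that carried floxed Foxf1 alleles alone (Foxf1 fl/fl, littermate controls) with cells of mice that also carried the αSMACreER transgene, in which tamoxifen-activated Cre driven by the αSMA promoter deletes Foxf1 (labelled αSMACreER;Foxf1 fl/fl or Knockout, and called αSMACreER;Foxf1-/- here). Both genotypes had been given the hepatotoxin CCl4 for 5 weeks to induce fibrosis. The paper describes tamoxifen injections during the injury period and compares FOXF1 staining of both genotypes after CCl4 and tamoxifen. The cells were those that adhered to culture dishes within 2 hours of plating. RNA was pooled into 1 library per genotype, so differences below could not be set against the spread between animals, and no p-value is given. Foxf1 itself is not analysed here.

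MHC class II molecules are pairs of an α and a β chain on the surface of antigen-presenting cells, where they display peptides from engulfed proteins to CD4+ T cells. The invariant chain Cd74 occupies the groove of the new molecule and guides it to the endosome, where cathepsins trim the chain and H2-DM exchanges the remaining fragment for a peptide. Ciita is the coactivator that turns these genes on together, through factors that sit on the X and Y boxes of their promoters. Dendritic cells, B cells and macrophages carry class II, among them the Kupffer cells of the liver. Flt3 is the receptor for the growth factor that drives dendritic cell development, Clec9a is a receptor for dead cells on type 1 conventional dendritic cells, and Siglech is a lectin of plasmacytoid dendritic cells.

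The X and Y boxes were looked for in the promoters of these genes, and 3 promoters are shown because they belong to a classical α chain, a classical β chain and a DM chain. Each is the 150 bases just before the transcription start in RefSeq (GRCm38.p6), written 5′ to 3′ on the gene's strand, with the Y box core GATTGG (or CCAATC, its other strand) and the X box core AACNNATG in capitals.
H2-Aa: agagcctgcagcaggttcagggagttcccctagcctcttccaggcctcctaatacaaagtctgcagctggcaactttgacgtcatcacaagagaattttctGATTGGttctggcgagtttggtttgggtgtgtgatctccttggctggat
H2-Eb1: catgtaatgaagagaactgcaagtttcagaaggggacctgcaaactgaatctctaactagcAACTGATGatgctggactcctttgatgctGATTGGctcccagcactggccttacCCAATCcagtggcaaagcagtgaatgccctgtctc
H2-DMb1: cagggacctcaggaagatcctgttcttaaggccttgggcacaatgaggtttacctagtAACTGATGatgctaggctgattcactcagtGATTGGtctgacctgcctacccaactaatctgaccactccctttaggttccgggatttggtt
These lie at chr17:34287824-34287973 on the minus strand, chr17:34305717-34305866 on the plus strand and chr17:34153041-34153190 on the plus strand. In H2-Eb1 the X core began 89 bases before the start and the Y core 60 bases before it, and in H2-DMb1 they began 92 and 62 bases before it. H2-Aa held the Y core 49 bases before the start and no X core of these letters.

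Both cores were searched on both strands in windows from 250 bases before to 50 bases after the start. Of 32851 such windows, 16.1% held the Y core and 8.86% the X core. An X core followed on the same strand by a Y core, with their starts 20 to 40 bases apart, was found in 26 windows (0.0791%). Of these windows 5 belonged to class II genes, namely H2-Eb1, H2-DMb1, H2-DMb2, H2-Ob and H2-Eb2, with 27 to 30 bases between the starts. The cores and the spacing were chosen after the sequences had been seen, so these shares are a description. Windows of 7 of the 10 genes were read, and none of H2-Ab1, Cd74 or Ciita. Neither core was in the windows of Flt3, Clec9a and Siglech, and H2-DMa had a Y core in 1 of its 2 windows, 199 bases before a start that lies upstream of the deposited entry.

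The steps between low FPKM values gave an estimate of about 9830000 reads for the Foxf1 fl/fl library and 11320000 for the αSMACreER;Foxf1-/- library. This estimate is rough, since 49.0% and 51.2% of the low values used lay within 0.1 of a whole read. A log2 difference is log2(FPKM + 0.1) in αSMACreER;Foxf1-/- less that in Foxf1 fl/fl, after the αSMACreER;Foxf1-/- values were divided by 1.02, the median ratio of the libraries. The 95% intervals beside them are approximate, were computed on the FPKM ratio without the added 0.1 and cover counting error only. The labelled cell type was stromal. Of 10 stellate cell and myofibroblast genes 8 passed the filter, of which 1 was higher and 0 lower, with a median of 0.51. With the median of genes of like length subtracted, the median was 0.15 for these 8 genes. Col1a1, Col3a1 and Dcn, the most abundant of them, were at 70.2 to 127 FPKM in Foxf1 fl/fl and 103 to 186 in αSMACreER;Foxf1-/-. Of the 8 genes, 7 were above 0. The higher gene was Des, at 1.70 and 3.29 FPKM, a log2 difference of 0.89 (0.42 to 1.46). Acta2, which encodes αSMA, was at 7.77 and 5.65 FPKM, with an interval of -1.13 to 0.14 that spanned 0. The stellate cell gene Lrat was near 0, at 0.0778 and 0.111 FPKM. Des, Acta2 and Lrat were named after their values were seen. Kupffer cell and macrophage genes, 11 in the list, summed to 9675 and 7647 FPKM, against 335 and 481 for the 10 stellate cell and myofibroblast genes. Both libraries thus held RNA of antigen-presenting cells besides stromal cells. The paper, in contrast, states that hepatocyte and Kupffer markers were absent from the purified cells. All 8 hepatocyte genes and all 5 neutrophil genes of the lists were at least 1.5-fold lower in αSMACreER;Foxf1-/-, with median log2 differences of -1.45 and -1.35, and the part of this in the results below was not tested.

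Cd74 and the classical class II chains were among the most abundant RNA of these cells in both genotypes. The structural class II genes lay within 1.5-fold of each other between the genotypes. Cd74 was measured at 4066 FPKM in Foxf1 fl/fl and 3819 FPKM in αSMACreER;Foxf1-/-, which placed it at rank 11 and rank 13 among 21177 protein-coding genes. H2-DMa was at rank 890 and 895, and Ciita at rank 7682 and 6720. The 6 genes for the chains, Cd74 and H2-DM together summed to 8399 and 7888 FPKM, or 1.13% and 1.20% of all FPKM. Of the 10 genes, 1 was at least 1.5-fold higher in αSMACreER;Foxf1-/- and 0 were lower, whereas 12.9% of the 12861 genes were higher and 13.2% were lower. The higher gene was Clec9a, so the class II genes gave 0 of 7 past the threshold in either direction. The median log2 difference of the 10 genes was -0.08, and that of all genes was 0.0058. In pooled cells of several types, fewer cells of a type and less RNA per cell cannot be told apart.

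**Figure D1:**
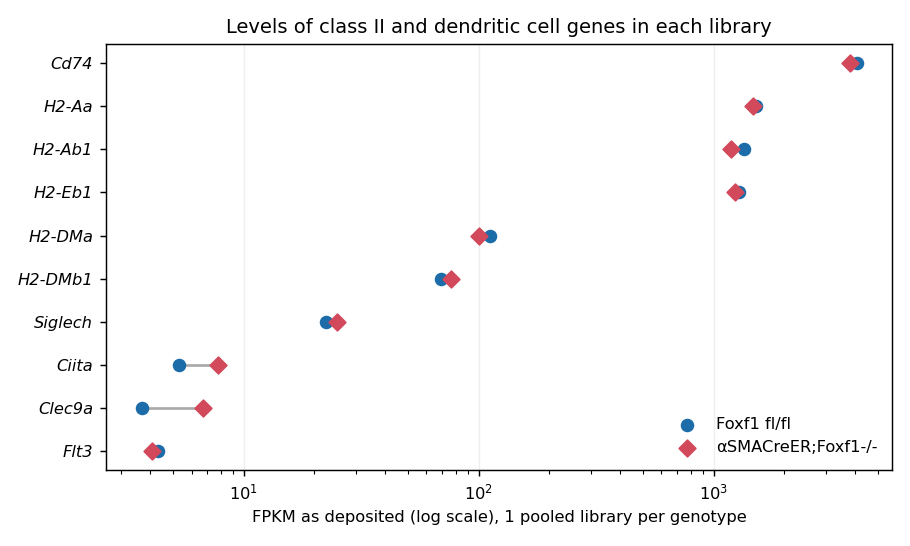
FPKM as deposited (log axis) of the 10 genes in the Foxf1 fl/fl library and the αSMACreER;Foxf1-/- library, 1 point per library with no replicates. Cd74, H2-Aa, H2-Ab1 and H2-Eb1 stand at 1191 to 4066 FPKM, H2-DMa and H2-DMb1 at 69.3 to 112, and Ciita, Flt3 and Clec9a below 10.

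H2-Aa (ENSMUSG00000036594, chromosome 17 from 34282744 to 34287827 of GRCm38, minus strand) encodes the α chain of the I-A molecule. It was at 1523 FPKM in Foxf1 fl/fl and 1473 in αSMACreER;Foxf1-/-, a log2 difference of -0.07 (-0.11 to -0.04) on about 13909 and 15489 reads. H2-Ab1 (ENSMUSG00000073421, chromosome 17 from 34263209 to 34269418), which encodes the β chain of the same molecule, was at 1351 and 1191 FPKM, a log2 difference of -0.21 (-0.24 to -0.17). The chains of I-A therefore stood at similar levels per length, with an H2-Aa to H2-Ab1 ratio of 1.13 in Foxf1 fl/fl and 1.24 in αSMACreER;Foxf1-/-. H2-Eb1 (ENSMUSG00000060586, chromosome 17 from 34305883 to 34316199) encodes the β chain of I-E, and it was at 1278 and 1229 FPKM with a log2 difference of -0.08 (-0.12 to -0.05). Its α partner, listed as the pseudogene H2-Ea-ps, was at 0.638 and 0.175 FPKM on about 5 and 2 reads, and mice of the C57BL/6 background are known to lack I-E α expression. In these cells the β chain RNA was thus present at a level like that of I-A while the α chain RNA was close to 0.

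Cd74 (ENSMUSG00000024610, chromosome 18 from 60803848 to 60812646) had a log2 difference of -0.12 (-0.13 to -0.10) on about 48404 and 52352 reads, the narrowest interval of the 10. Its level was 2.67 times that of H2-Aa in Foxf1 fl/fl and 2.59 times in αSMACreER;Foxf1-/-. Each of H2-Aa, H2-Ab1, H2-Eb1 and Cd74 had an interval below 0, but their direction depended on the scaling. With both libraries set to the same FPKM sum, which moved the median of all genes to 0.21, H2-Aa, H2-Eb1 and Cd74 were at 0.13, 0.12 and 0.09 and H2-Ab1 was at -0.0032. The direction of 3 of these 4 genes thus turned under the equal FPKM sum, where all 4 stayed below the median of all genes. With the values as deposited all 4 were below 0, at -0.05 for H2-Aa, -0.18 for H2-Ab1, -0.06 for H2-Eb1 and -0.09 for Cd74.

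H2-DM, the peptide exchange factor, was below the classical chains in level. H2-DMa (ENSMUSG00000037649, chromosome 17 from 34135182 to 34139101), its α chain, was at 112 FPKM in Foxf1 fl/fl and 100.6 in αSMACreER;Foxf1-/-, a log2 difference of -0.18 (-0.27 to -0.09). H2-DMb1 (ENSMUSG00000079547, chromosome 17 from 34153072 to 34160223) encodes a β chain and was at 69.3 and 76.5 FPKM, a log2 difference of 0.12 (-0.02 to 0.25). The α to β ratio was 1.62 in Foxf1 fl/fl and 1.32 in αSMACreER;Foxf1-/-. Under the equal FPKM sum H2-DMa was at 0.02 and H2-DMb1 at 0.32, so the direction of H2-DMa also turned. With the values as deposited H2-DMa was at -0.15. H2-DMb1 has a near copy, H2-DMb2, next to it, and 254 of the 1330 stretches of 75 bases in its transcript (19.1%) also occur in H2-DMb2, so the split of reads between them is uncertain. H2-DMb2 was at 10.5 and 13.1 FPKM, a log2 difference of 0.29 (-0.02 to 0.64), and the intervals of both genes spanned 0.

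Ciita (ENSMUSG00000022504, chromosome 16 from 10488178 to 10527564), the coactivator, was at 5.29 FPKM in Foxf1 fl/fl and 7.77 FPKM in αSMACreER;Foxf1-/-. This was a log2 difference of 0.52 (0.27 to 0.79), or 1.43-fold, on about 195 and 330 reads, the highest value among the 7 class II genes and just short of 1.5-fold. Under the equal FPKM sum the log2 difference was 0.72, past 1.5-fold. The level of H2-Aa relative to Ciita was 288 in Foxf1 fl/fl and 190 in αSMACreER;Foxf1-/-. Differences moved with length in these libraries, and the length used was 3953 bases for Ciita against 1128 for H2-Aa. The 3953 bases are the longest coding transcript inside the deposited locus, while another annotated Ciita transcript has 6007 bases. Length groups around 5406 and 6516.5 bases had medians of 0.32 and 0.40, against 0.15 around 3892 bases, so the value below depends on this choice. With the median of genes of like length subtracted, Ciita was at 0.37 and H2-Aa at 0.24. Exons of Ciita share 329 bases with Dexi on the other strand, which was at 9.59 and 8.77 FPKM. Whether the counting used the strand is not given in the sources used here.

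Of the 3 dendritic cell genes, Clec9a was higher, Siglech and Flt3 lay within 1.5-fold, and all were far below the class II chains. Clec9a (ENSMUSG00000046080, chromosome 6 from 129408862 to 129424764) was at 3.67 FPKM in Foxf1 fl/fl and 6.70 in αSMACreER;Foxf1-/-, a log2 difference of 0.82 (0.50 to 1.17), or 1.77-fold, on about 112 and 234 reads. Its transcripts share 184 exon bases on the same strand with the neighbouring gene Clec1b, a lectin of platelets and Kupffer cells, and 111 of 3219 stretches of 75 bases (3.45%) occur in both. Clec1b was at 116 FPKM in Foxf1 fl/fl and 88.6 FPKM in αSMACreER;Foxf1-/-, so it was lower in the library where Clec9a was higher.

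Siglech (ENSMUSG00000051504, chromosome 7 from 55768178 to 55778925) was the most abundant of the dendritic cell genes, at 22.4 and 24.9 FPKM, a log2 difference of 0.13 (-0.05 to 0.31). Flt3 (ENSMUSG00000042817, chromosome 5 from 147330741 to 147400489) was at 4.31 and 4.09 FPKM, a log2 difference of -0.10 (-0.43 to 0.24) on about 146 and 160 reads. For both genes the interval spanned 0 at the median scaling used here. Under the equal FPKM sum Siglech was at 0.33 and Flt3 at 0.10, both within 1.5-fold. The ratio of Siglech to Clec9a was 6.09 in Foxf1 fl/fl and 3.71 in αSMACreER;Foxf1-/-.

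**Figure D2:**
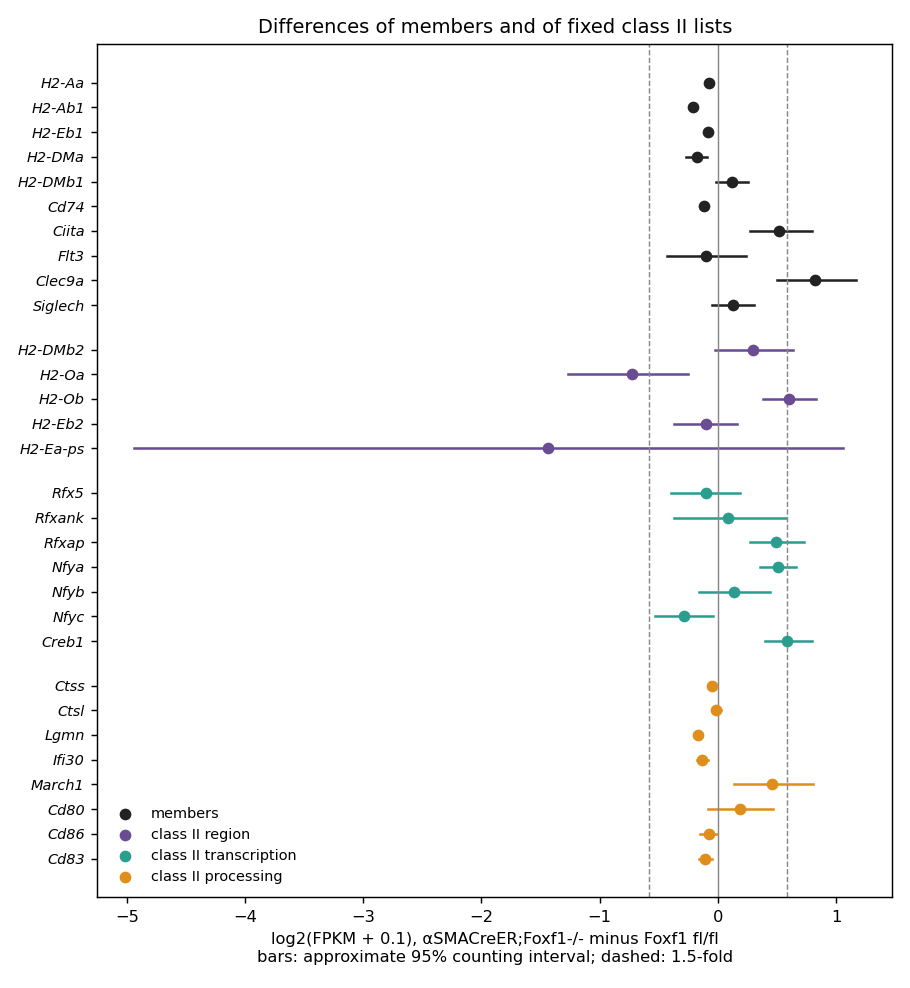
Log2 difference, αSMACreER;Foxf1-/- minus Foxf1 fl/fl, of the 10 genes (black) and of the other class II genes of the region (purple), the transcription list (green) and the processing list (orange), with approximate 95% counting intervals as bars and dashed lines at 1.5-fold. Clec9a at 0.82 and H2-Ob at 0.60 lie past 1.5-fold on the higher side and H2-Oa at -0.73 on the lower side, while H2-Ea-ps, which did not pass the filter, has a wide bar on about 5 and 2 reads.

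The other class II genes of the region were read next, and the subunits of H2-O, the partner that inhibits H2-DM, lay past 1.5-fold in opposite directions. H2-Oa, the α chain, was at 9.34 FPKM in Foxf1 fl/fl and 5.70 in αSMACreER;Foxf1-/-, a log2 difference of -0.73 (-1.27 to -0.25), whereas H2-Ob, the β chain, was at 10.5 and 16.2 FPKM, a log2 difference of 0.60 (0.38 to 0.83). The H2-Ob to H2-Oa ratio was 1.12 in Foxf1 fl/fl and 2.85 in αSMACreER;Foxf1-/-. H2-Oa was within 1.5-fold under the equal FPKM sum (-0.53) and after removal of the length trend (-0.41), and H2-Ob with 1 in place of 0.1 added before log2. H2-Oa rested on about 82 and 57 reads, and 17.3% of its 75-base stretches also occur in the antisense gene BC051537 that overlaps it, so its level is uncertain. H2-Eb2, a minor β chain gene, was at 7.14 and 6.76 FPKM, and H2-Eb1 stood 179 and 182 times above it. Of the 5 genes of this list, 4 passed the filter, 1 was higher and 1 lower, with a median of 0.10.

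**Figure D3:**
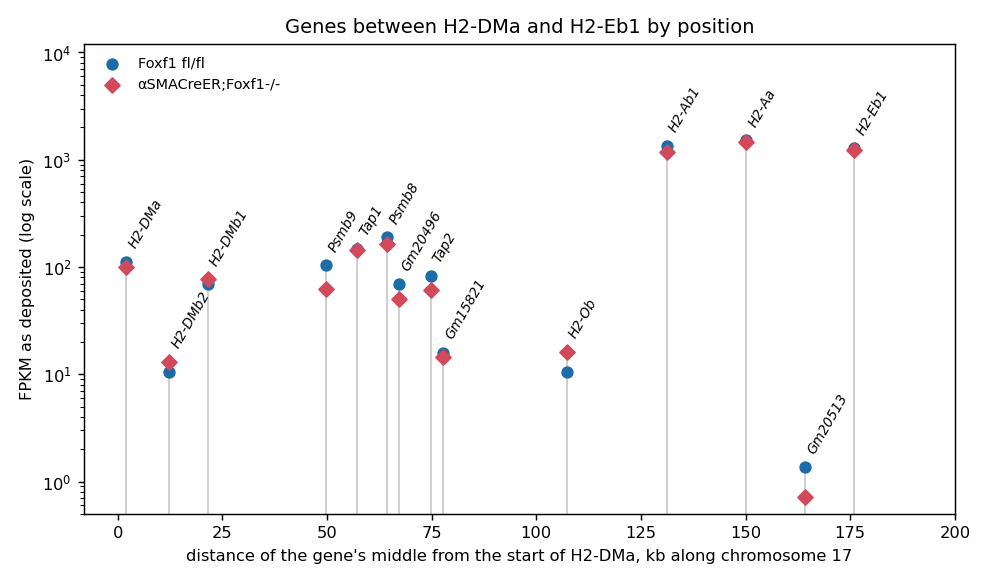
FPKM as deposited (log axis) of the 14 annotated genes from H2-DMa to H2-Eb1 on chromosome 17, plotted by the distance of each gene's middle from the start of H2-DMa in kb, with 1 point per library. H2-Ab1, H2-Aa and H2-Eb1 form a group at 1191 to 1523 FPKM at the right, while H2-Ob beside them is near 10 FPKM.

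Between H2-DMa and H2-Eb1, a stretch of 181 kb, the annotation holds 14 genes with an entry, 11 of them protein-coding, and all 14 passed the filter. The genes H2-Ab1, H2-Aa and H2-Eb1 held most of its summed FPKM, and the fourth gene by level was Psmb8, an immunoproteasome subunit of the class I pathway, at 190 and 165 FPKM. In the stretch 1 gene was higher (H2-Ob), 2 were lower and 11 lay within 1.5-fold, with a median of -0.17. The lower genes, which were picked out after their values had been seen, were the immunoproteasome gene Psmb9, at 104 and 61.7 FPKM, and the antisense gene Gm20513, at 1.37 and 0.723 FPKM. Gm20513 rested on about 5 and 3 reads, with an interval of -3.65 to 1.396 that spanned 0. Psmb9 was within 1.5-fold under the equal FPKM sum (-0.58) and after removal of the length trend (-0.52).

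None of the 7 listed transcription factors that work with Ciita passed 1.5-fold, and their median log2 difference was 0.13, whereas 3 were higher under the equal FPKM sum. Of the RFX complex, which binds the X box, Rfx5 was at 4.56 and 4.32 FPKM, Rfxank at 2.10 and 2.28, and Rfxap at 13.2 and 19.0. Of the NF-Y complex, which binds the Y box, Nfya was at 15.9 and 23.0 FPKM, Nfyb at 7.19 and 8.04, and Nfyc at 15.9 and 13.3. Creb1, which binds within the X box region, was at 4.001 and 6.154 FPKM, a log2 difference of 0.58 (0.40 to 0.80) that stopped just short of the threshold and was 0.09 with the length trend removed. The factors were thus at single or low double digits of FPKM, like Ciita, far below the class II chains.

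Interferon gamma, the main inducer of Ciita outside professional antigen-presenting cells, and its signalling genes showed no call either. The list had 7 genes with an entry, of which 0 passed 1.5-fold in either direction, with a median of 0.03 (Irf8 is not analysed here). Irf1, a transcription factor induced by the pathway, was at 396 FPKM in Foxf1 fl/fl and 328 in αSMACreER;Foxf1-/-. The kinases Jak1 and Jak2 were at 89.2 and 114 FPKM and at 101 and 126 FPKM, and the receptor chain Ifngr2 was at 78.9 and 78.7 FPKM.

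Of 8 genes for processing and costimulation, 0 passed 1.5-fold, and their median log2 difference was -0.07. Ctss, the cathepsin that trims the invariant chain in antigen-presenting cells, was at 1771 and 1738 FPKM, above H2-Aa in both libraries. Ctsl, another lysosomal protease, was at 563 and 569 FPKM, the asparagine endopeptidase Lgmn at 959 and 871, and Ifi30, the thiol reductase of the endosome, at 917 and 851. The costimulatory ligand Cd86 was at 139 and 134 FPKM and its relative Cd80 at 13.03 and 15.14, while Cd83, which stabilises class II at the surface, was at 222 and 210. March1, the ubiquitin ligase that removes class II from the surface, was at 3.12 and 4.40 FPKM with a log2 difference of 0.46 (0.14 to 0.81).

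The class I pathway, which most cells express, was compared as a neighbouring system. Of 12 class I genes, 0 were higher and 1 was lower (Psmb9), with a median of -0.12. B2m, the light chain of class I, was at 4831 and 4446 FPKM, which is 3.17 and 3.02 times H2-Aa, and the heavy chains H2-K1 and H2-D1 were at 2253 and 1959 and at 2253 and 2059 FPKM. The chaperone Calr was at 483 and 515 FPKM. The main chains of both systems were thus abundant, with B2m and Cd74 at similar levels per length.

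**Figure D4:**
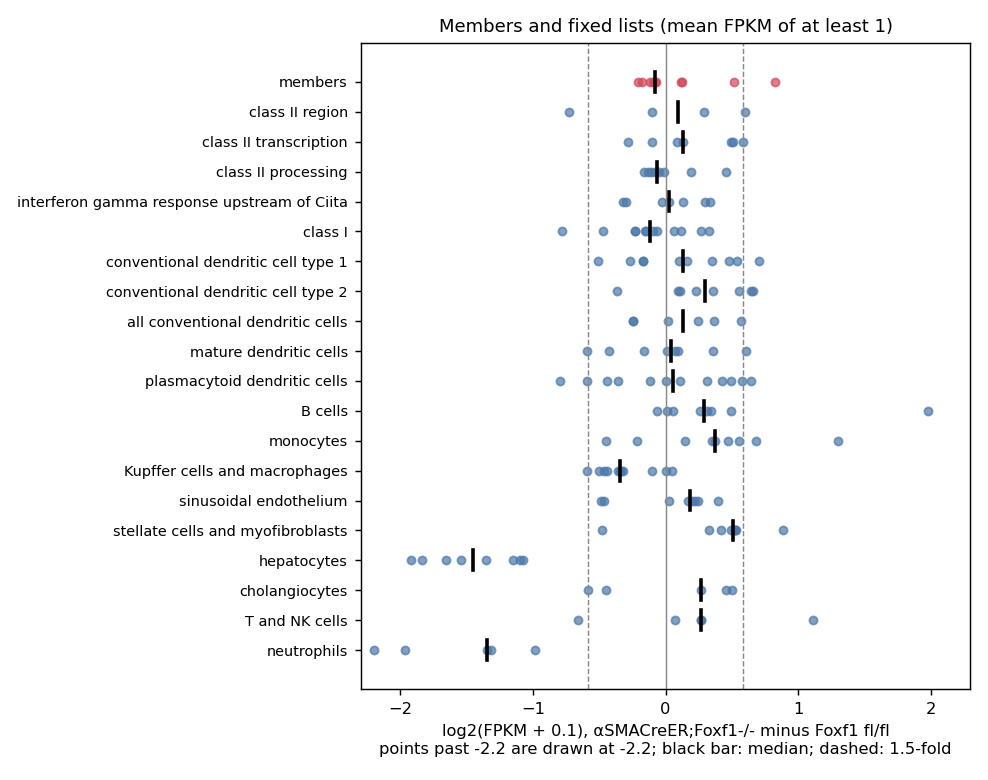
Log2 differences, αSMACreER;Foxf1-/- minus Foxf1 fl/fl, of the 10 genes (red) and of each marker list (blue, genes with a mean of at least 1 FPKM), with the median as a black bar, dashed lines at 1.5-fold and Ly6g, listed at 0 in αSMACreER;Foxf1-/-, drawn at the left end. The 10 genes cluster near 0 apart from Ciita and Clec9a, the dendritic cell lists have medians from 0.04 to 0.30, and the hepatocyte and neutrophil lists lie on the lower side.

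To place Flt3, Clec9a and Siglech among other genes, lists of dendritic cell genes written from general knowledge were read, and their medians lay between 0.04 and 0.30. These libraries held RNA of several cell types, and other cells can express genes of these lists. How much of each gene's RNA came from dendritic cells was not tested. Among 10 genes of type 1 conventional dendritic cells, the cells that carry Clec9a, 1 was higher and 0 lower, with a median of 0.13. The higher gene was Wdfy4, needed for cross-presentation, at 5.44 and 9.12 FPKM, named after its value was seen. Its log2 difference of 0.71 was 0.21 with the length trend removed, within 1.5-fold. The most abundant of the list were Cd24a (42.1 and 38.1 FPKM), Cadm1 (24.3 and 27.8), Naaa (36.8 and 33.3) and Snx22 (35.7 and 30.1), none past the threshold. Xcr1, the chemokine receptor specific to these cells, was also looked up after the values were seen, at 2.02 and 2.22 FPKM with a log2 difference of 0.10 (-0.32 to 0.53). The 10 genes of this list ranged from -0.51 to 0.71, and Clec9a, at 0.82, lay beyond that range.

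The type 2 list had 8 of 9 genes past the filter, of which 2 were higher and 0 lower, with a median of 0.30. Its most abundant genes were Sirpa (177 and 195 FPKM), Itgam (46.9 and 75.6), Esam (62.2 and 49.0) and Klf4 (42.6 and 50.9), of which Itgam, an integrin shared with monocytes and macrophages, was higher. With the length trend removed Itgam was at 0.41, within 1.5-fold. The other higher gene was the lectin Mgl2, named after its value was seen, at 7.37 and 11.8 FPKM, with a log2 difference of 0.65 (0.30 to 1.01). The lectin Cd209a, also named after its value was seen, did not pass the filter and was at 0.0707 and 0.0620 FPKM. For conventional dendritic cells in general, 0 of 6 genes passed 1.5-fold and the median was 0.13 (Flt3l, the ligand of Flt3, is not analysed here). Itgax, at 0.57, was just short of the threshold. It was past 1.5-fold with the values as deposited (0.59) and under the equal FPKM sum (0.77). With the length trend removed Itgax was at 0.42 and the median of the 6 genes was -0.02. Id2, Relb, Itgax and Dpp4 were the most abundant of these 6, at 393 and 338, 104 and 89.5, 21.7 and 32.7, and 21.2 and 25.6 FPKM.

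Plasmacytoid dendritic cell genes, the company of Siglech, gave 1 higher and 2 lower of 12, with a median of 0.06. Bst2 was at 541 and 406 FPKM and Irf7 at 439 and 413, both interferon-induced genes that many cell types express. Ly6d was at 60.3 and 35.3 FPKM, a log2 difference of -0.80 (-1.05 to -0.54), and was lower, while Klk1 was at 33.5 and 34.3. With the length trend removed Ly6d was at -0.47, and 0 of the 12 genes passed 1.5-fold in either direction. Genes of mature dendritic cells gave 1 higher and 1 lower of 8, with a median of 0.04, and 0 lower under the equal FPKM sum. Ccl5 was at 1384 and 1046 FPKM, and Ccr7, the receptor that takes dendritic cells to the lymph node, was at 168 and 173. The cytoskeletal gene Fscn1 was at 50.6 and 46.1 FPKM and the chemokine Ccl22 at 32.5 and 34.8.

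Lists of B cell, Kupffer cell and macrophage, and monocyte genes were read next, and these do not cover every cell type that can carry class II. Of the B cell list, 8 of 10 genes passed the filter, 1 was higher and 0 lower, and the list summed to 79.6 FPKM in Foxf1 fl/fl and 94.7 in αSMACreER;Foxf1-/-. The B cell receptor subunits Cd79a and Cd79b were at 24.6 and 24.0 FPKM and at 23.3 and 24.7 FPKM, and the inhibitory receptor Cd22 was at 7.08 and 9.19 FPKM. The higher B cell gene was Pax5, named after its value was seen, at 2.40 and 9.92 FPKM. Kupffer cell and macrophage genes gave 0 higher and 1 lower of 11 (0 lower under the equal FPKM sum), with a median of -0.35, and C1qb was at 1632 and 1307 FPKM, near the level of H2-Aa. The monocyte list gave 2 higher and 0 lower of 9, with a median of 0.38, and 7 were above 0. The higher genes were the matrix gene Fn1, at 127 and 319 FPKM, and Cx3cr1, at 2.30 and 3.82 FPKM. Cx3cr1 was named after its value was seen. Plac8, at 507 and 378 FPKM, had a log2 difference of -0.45. Whether the RNA of these genes came from monocytes was not tested. These lists thus differed in direction, and the part of each cell type in the class II values was not tested.

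Across all genes the difference moved with transcript length, and the 10 genes lay at different places on that trend. The median log2 difference was -0.30 in the shortest 10% of genes (up to 766 bases) and 0.44 in the longest 10% (from 5871 bases). The 6 structural class II genes are short, at 1128 to 2005 bases. The coding transcripts of Clec9a, Flt3 and Ciita inside their deposited loci reach 3293, 3657 and 3953 bases. With the median of genes of like length subtracted, H2-Aa was at 0.24, H2-Eb1 at 0.23, Cd74 at 0.15, H2-Ab1 at 0.10, H2-DMb1 at 0.38 and H2-DMa at -0.03. Clec9a was then at 0.74, still past 1.5-fold, Ciita at 0.37, Siglech at 0.21 and Flt3 at -0.21. Of the 10 genes, 8 were then above 0, in place of 4, and the same 1 gene passed 1.5-fold.

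**Figure D5:**
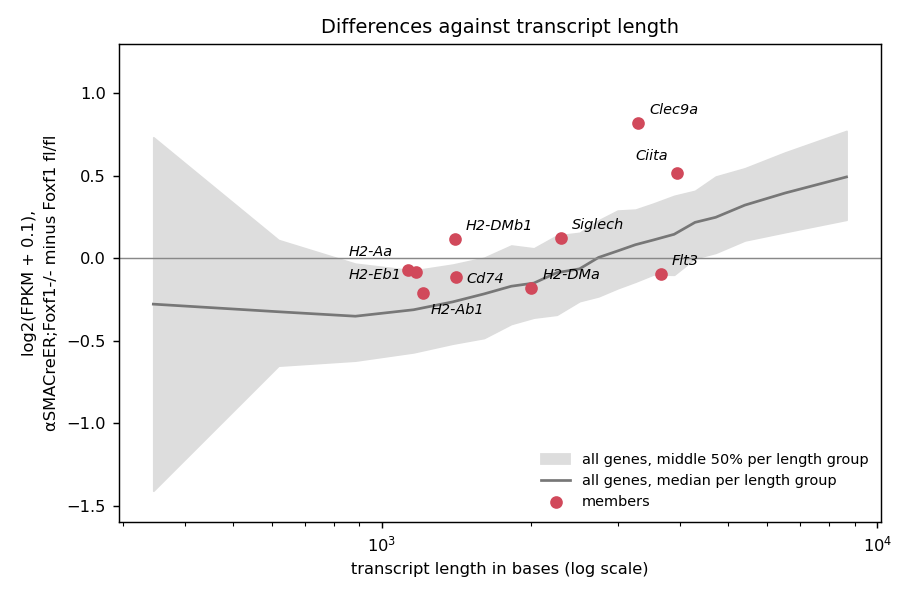
Log2 difference, αSMACreER;Foxf1-/- minus Foxf1 fl/fl, against transcript length in bases (log axis), with the 10 genes as points, the median of all genes per length group as a line and the middle 50% as a grey band. Clec9a and Ciita lie above the band, and H2-DMb1 lies above it at 1404 bases. Ciita is drawn at 3953 bases, the longest coding transcript inside its deposited locus.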

How the data were processed

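RNA-seq was analysed from 2 libraries, 1 per genotype, each made from RNA pooled within a genotype. Per the labels and the methods of the study, single-end reads of 75 bases were aligned by the authors to mm10 with the TopHat/Cufflinks pipeline, and FPKM values per Ensembl gene were deposited. The authors' separate quantification, normalized with DESeq, was not used. Entries were named with GENCODE M21, and where a symbol had several entries the most abundant was used. The αSMACreER;Foxf1-/- values were divided by the median ratio of genes with at least 1 FPKM in both libraries, and 0.1 was added before log2, which understates changes of low genes. The 1.5-fold threshold follows the study, whose false discovery rate could not be applied to FPKM values. Intervals of 95% treat estimated reads, with fragments of 200 bases assumed, as a binomial split.

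The genes and lists were chosen with earlier results of these data known. Genes named are the 10, all class II genes of the region, transcription and processing lists, the 4 most abundant of other lists, and those stated to be named after their values were seen. Length trends used 20 groups of genes. The scripts were tested on simulated data. Alternatives changed scaling, pseudocount, filter, threshold, summing of entries and length. Versions were numpy 2.4.6, scipy 1.17.1, pandas 2.3.3 and matplotlib 3.10.9 under Python 3.11.15.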

Additional observations from a re-analysis of the deposited data

How the results depend on the processing

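No paired analysis was possible because a genotype has only 1 library. With the libraries set to the same FPKM sum, 2 of the 10 genes were at least 1.5-fold higher (Clec9a and Ciita), 9 of 10 were above 0 and their median was 0.13, and 2820 of all genes were higher and 1121 lower, in place of 1662 and 1697. The medians of the lists became 0.30 for the class II region, 0.34 for class II transcription, 0.14 for processing, 0.33 for type 1, 0.50 for type 2 and 0.33 for all conventional dendritic cells, 0.25 for mature and 0.26 for plasmacytoid dendritic cells. With the length trend removed, the median of the 10 genes was 0.22, and the medians for processing, type 1 and all conventional dendritic cells were 0.18, -0.029 and -0.018. A 2-fold threshold left 0 of the 10 genes, and 581 higher and 800 lower of all genes. Without a filter, 3978 genes were higher and 3304 lower and the class II region median was -0.10. A mean of at least 5 FPKM gave 692 higher and 953 lower, with medians of 0.49 for class II transcription and -0.0026 for type 1 dendritic cells. Pseudocounts of 0.01 and 1 and summed entries moved 0 of the 10 genes by more than the distance from the centre to the end of that gene's own counting interval. Depth limits Ciita, Flt3 and Clec9a, which rest on 112 to 330 reads a library, and with 1 library per genotype the spread between animals is unknown.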
